A study of Homo sapiens
Mus musculus with 3 samples.

Results

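The wells of Jurkat cells in 3 ICELL8 libraries were divided into 4 sets of equal size, separately in each library, by the share of their human reads that fell on 8 genes of the mitochondrial genome. The high set was compared with the low set, and the members were thus chosen by a measured value, their mitochondrial share. The libraries are 3'DE replicate 1 (DE1), 3'DE replicate 2 (DE2) and 3'DE-UMI replicate 1 (UMI1). Of 4782 well barcodes, 4360 passed minimums of 1000 reads assigned to genes and of 200 genes, and 1574 of these were human, with at least 90% of their reads on human genes. A human well was taken as Jurkat with at least 3 reads on 6 Jurkat marker genes, and with at least 3 times as many reads on these as on 6 marker genes of TALL-104, the other human line. This gave 1194 Jurkat wells, of which 297 were in a high set and 297 in a low set. There were 383, 426 and 385 Jurkat wells in DE1, DE2 and UMI1, with 95, 106 and 96 wells in each of the high and low sets, called the outer sets here. The wells between them formed the lower middle and the upper middle set.

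Every library came from a mixture, in equal parts, of Jurkat (a human T-cell leukemia line), TALL-104 (a human line of cytotoxic T-cell leukemia), IVA12 (a mouse hybridoma line) and EL4 (from a T-cell lymphoma of the mouse), with no treatment and no genetic change named. On the ICELL8 cx, cells are dispensed into nanowells, the chip is imaged, and each processed well carries its own barcode. The group 3'DE (2 libraries) used the kit for counting the 3' ends of transcripts, and the group 3'DE-UMI (1 library) used a modified form in which primers were digested before the cDNA was amplified, so that unique molecular identifiers (UMIs) could be counted. By the sample list, DE1 was made from a mixture of its own, while DE2 and UMI1 shared a mixture. The 3 libraries were therefore not 3 separate cultures, and the p-values below measure the spread between these libraries.

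Mitochondria keep a small genome of their own, which is transcribed inside the organelle and encodes core subunits of the respiratory chain and of the ATP synthase. All other respiratory chain subunits are encoded in the nucleus. In single-cell work the share of mitochondrial transcripts in a cell is used as a quality measure, because a cell that has lost cytoplasmic RNA can retain its mitochondria, but the share also varies among intact cells. A share does not tell more mitochondrial RNA from less of the rest, so the reads on both sides of the ratio are given below.

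The Jurkat markers that assigned the wells were present at similar levels in both outer sets. The sums of the TALL-104 markers were less even, in DE2 largely through a single well. The 6 Jurkat marker genes summed to 1892 CPM (reads scaled to a common total of human reads) in the low and 1884 in the high set of DE1. They summed to 2477 and 2257 in DE2, and to 2601 and 2561 in UMI1. The 6 TALL-104 marker genes were at 35.5 and 40.7 CPM in DE1, 11.1 and 32.1 in DE2, and 21.7 and 72.2 in UMI1. The sum of the TALL-104 markers was thus higher in the high set of all 3 libraries, although the median well of every set had no read on them. In DE1 the sums were only 86 reads in the low and 96 in the high set. The upper middle set of DE1 was above both, at 51.5 CPM. In DE2, 1 well held 263 of the 457 reads of the high set. Wells with at least 1 such read numbered 24 in the low and 26 in the high set of DE1, 24 and 32 in DE2, and 10 and 15 in UMI1. Since these genes helped to choose the wells, this is a description of the wells and not a test of the label.

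The mitochondrial share differed between libraries before any set was formed. Its median over Jurkat wells was 5.35% in DE1, 6.47% in DE2 and 3.34% in UMI1. The lone 3'DE-UMI library was thus below both 3'DE libraries. With 2 libraries against 1, an exact permutation test has only 3 arrangements, and no test was made. The share also chose the sets, so the values that follow describe them. In DE1 the low set had a median of 3.75% and the high set 6.84%. The corresponding medians were 4.62% and 8.45% in DE2, and 2.38% and 4.50% in UMI1. Thus the high set of UMI1 was at the level of the low set of DE2, and "high" means high within a library.

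There was no gap at the edges of the sets. The last well inside the low set and the first well outside it had shares of 4.440% and 4.443% in DE1, 5.352% and 5.357% in DE2, and 2.711% and 2.726% in UMI1. At the upper edge, the last well outside and the first well inside the high set had 6.190% and 6.209%, 7.608% and 7.636%, and 4.013% and 4.014%, in the same order of libraries. The wells formed a continuum over most of the range, with thin tails at both ends.

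**Figure D1:**
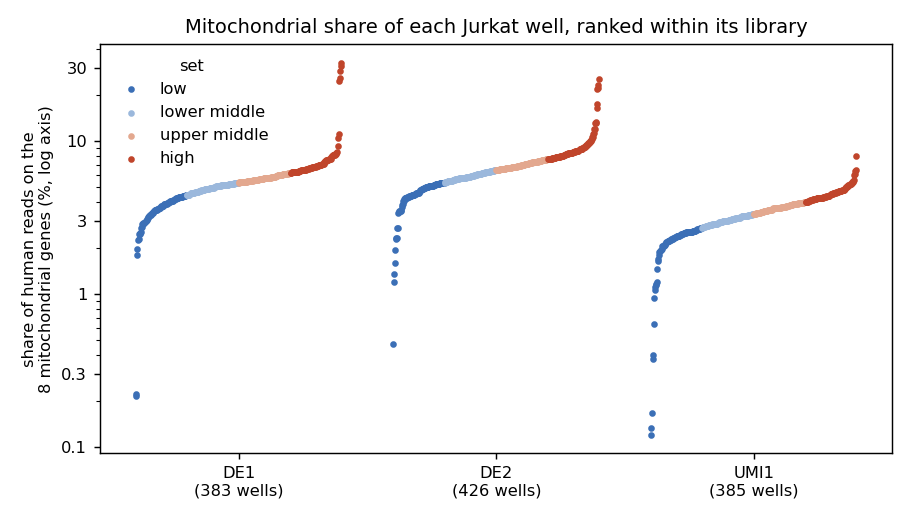
Share of human reads on the 8 mitochondrial genes (%, log axis) in each Jurkat well, ranked from lowest to highest within its library; each point is 1 well and colours mark the sets. The curves are smooth across the set edges, and only the 3'DE libraries hold wells above 10%.

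The spread among wells was wider than read counting alone gives. The SD of the share was 3.003, 2.488 and 1.017 percentage points in the 3 libraries, while the median binomial SD of a well, computed from its reads, was 0.141, 0.122 and 0.118 points. The interquartile ranges were 1.74, 2.25 and 1.29 points, so by this measure DE1 was narrower than DE2, and its larger SD was carried by a few wells of very high share. Reads that were copied from 1 molecule are not independent, and this counting SD is therefore too small. The UMI counts of UMI1 gave a stricter comparison. The median Jurkat well there held 1740 human UMIs, of which 72 were mitochondrial, and the UMI share had an SD of 1.10 points against a counting SD of 0.464 points. The read share and the UMI share of the same wells had a Spearman's rho of 0.875 over 385 wells, which is a description of 2 counts of the same molecules.

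Wells with a share above 10% were found in the 3'DE libraries only. There were 7 in DE1, which is 1.83% of its Jurkat wells (exact 95% binomial interval 0.738% to 3.73%), and 17 in DE2, which is 3.99% (2.34% to 6.31%). There were 0 of 385 in UMI1, and the highest share there was 7.99%. The limit for 0 wells was taken as 3 divided by the number of wells, or 0.779%. It is one-sided and thus not alike to the exact intervals of the other libraries. The intervals cover counting error only. The cut of 10% was the same for all libraries, although the median share was 3.34% in UMI1 against 5.35% and 6.47% in the 3'DE libraries. In DE1, these 7 wells had a median share of 26.0%, a median of 10556 human reads and 1168 genes, compared with 26294 reads and 2637 genes in the other 376 wells. Their mitochondrial reads were higher in absolute number (median 2636 against 1295) and their other human reads lower (7496 against 24793). In DE2 the 17 wells had a median share of 13.1% and more human reads than the others (51605 against 38161), but fewer genes (2025 against 2291). With every well thinned at random to 2000 reads outside the 20 genes of the selection, the number of genes in wells above 10% was lower in both libraries, with 755 against 1005 in DE1 and 855 against 913 in DE2. The wells above 10% of the 2 libraries thus differed in depth, and they shared a lower number of genes at equal depth. Each library is 1 sample, so these differences have no test.

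All 8 mitochondrial genes were higher in the high set in all 3 libraries, which the selection on their sum favours. They are given by Ensembl identifier, because no table used here paired the identifiers with gene names. ENSG00000198712 was the most abundant of them in the 3'DE libraries. It held 1.22% of the human reads of the summed wells in the low and 3.38% in the high set of DE1 (ratio 2.77), 2.22% and 5.17% in DE2, and 0.352% and 0.727% in UMI1. Its ratio was the largest of the 8 in DE1. ENSG00000198727 had the largest ratio of high to low in the other 2 libraries, with 0.199% and 0.570% in DE2 (ratio 2.87) and 0.390% and 1.00% in UMI1 (ratio 2.57). Its ratio in DE1 was 1.84. The smallest ratios in DE2 and in UMI1 were those of ENSG00000198763, at 1.36 and 1.09, and its level was the lowest of the 8 in DE1 and in UMI1. ENSG00000198888, another gene of low level, had ratios of 1.40, 1.42 and 1.49. The remaining 4 genes had ratios from 1.502 to 2.286. The shares of all 8 genes were thus higher in the high set, in unequal measure, which describes sets that their sum chose. For ENSG00000198763 in UMI1 the lower middle set, at 0.0537%, was below the low set, at 0.0603%.

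**Figure D2:**
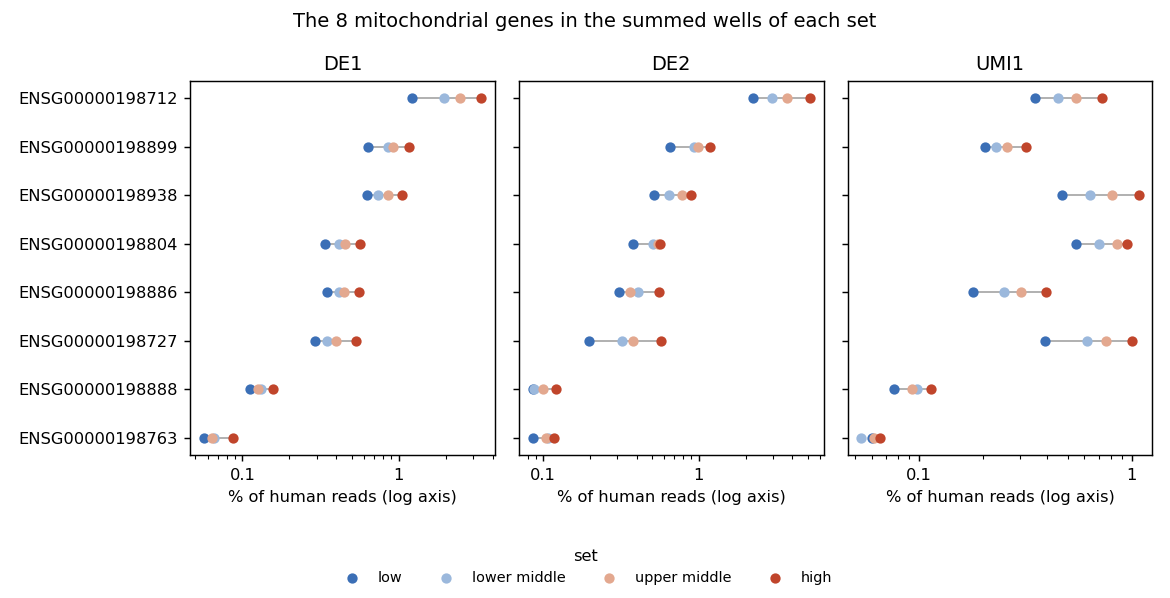
Level of each of the 8 mitochondrial genes as a percentage of human reads (log axis) in the summed Jurkat wells of each set, with 1 panel per library and 1 point per set. The high set lies to the right of the low set for every gene in every library, and ENSG00000198712 lies far lower in UMI1 than in the 3'DE libraries.

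The make-up of the mitochondrial share depended on the library. Over all Jurkat wells, ENSG00000198712 held 41.4% of the mitochondrial reads in DE1 and 53.3% in DE2, but 15.1% in UMI1. As a percentage of human reads it was at 2.25, 3.70 and 0.514 in the same order. ENSG00000198899 was also lower in UMI1, at 0.894%, 0.978% and 0.252% of human reads. ENSG00000198804 went the other way, at 0.443%, 0.514% and 0.765%, and ENSG00000198727 was at 0.391%, 0.391% and 0.687%. The lower total share of UMI1 was therefore not a uniform reduction of the 8 genes. The protocol group of 3'DE-UMI held 1 library, and protocol and library cannot be told apart.

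Within a library, the 8 genes tended to vary together from well to well. Over the 28 pairs of genes, the median Spearman's rho of their shares of human reads was 0.297 in DE1, 0.232 in DE2 and 0.142 in UMI1, with 28, 28 and 25 pairs above 0. These are descriptions over wells that share a library and a denominator. In DE1, each gene's rho with the sum of the other 7 ran from 0.151 for ENSG00000198888 to 0.543 for ENSG00000198899.

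A higher share went with more mitochondrial reads in every library, while the depth of the wells had no common direction. The median well of the low and of the high set held 947 and 1912 mitochondrial reads in DE1, 1248 and 4772 in DE2, and 383 and 897 in UMI1. The median of the other human reads was 26260 in the low and 24255 in the high set of DE1. It was 26364 and 43878 in DE2, and 16287 and 19158 in UMI1. Hence the high set had slightly fewer other reads in DE1 and more in both other libraries, with the largest difference in DE2. The log2 ratio of median human reads, high over low, was -0.07, 0.82 and 0.28, which gives a mean of 0.34 ± 0.44 (SD, n = 3 libraries), a difference smaller than the spread between the libraries. For mitochondrial reads the mean log2 ratio was 1.39 ± 0.48 (SD, n = 3). Depth was not used by the selection, but mitochondrial reads are the numerator of the share. With 3 pairs an exact sign test cannot give a two-sided p below 0.25, so none is given.

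Sets of equal depth were formed as well. When the sets were formed within 4 bins of depth in each library, the log2 ratio of human reads was 0.04, 0.06 and -0.05. The log2 ratio of mitochondrial reads was then 1.05, 1.28 and 0.96, and that of the other human reads was -0.02, -0.11 and -0.08. At equal human reads both values follow from the shares that chose the sets, so they are a description and not a further result. Across all Jurkat wells the Spearman's rho of share with human reads was -0.005, 0.114 and 0.064, but a rank correlation does not show a relation that turns. From the low to the high set, the median human reads were 27206, 24213, 27082 and 25964 in DE1, 27704, 44120, 48934 and 48745 in DE2, and 16582, 24860, 24018 and 20090 in UMI1. The low set was thus the shallowest of the 4 in DE2 and UMI1, and the deepest in DE1.

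**Figure D3:**
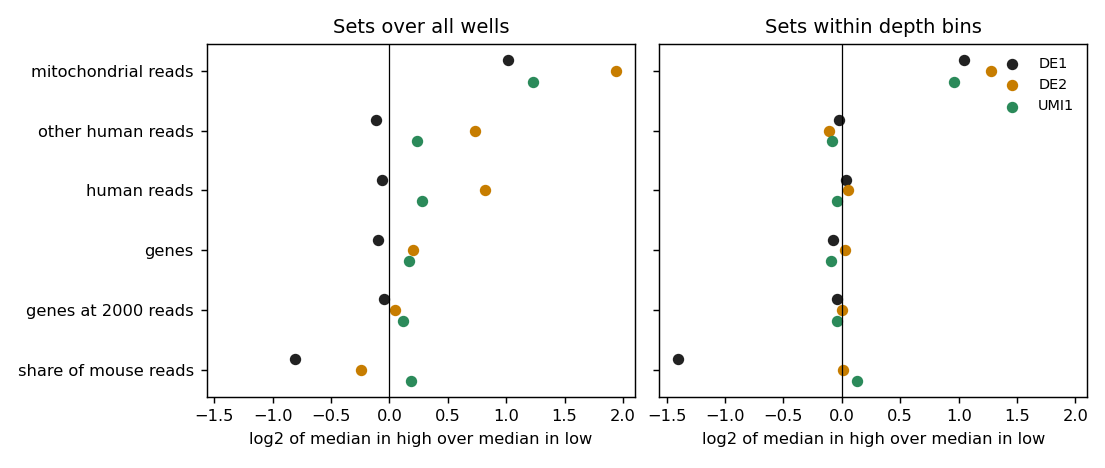
Log2 ratio of the median in the high set over the median in the low set for 6 measures per well, with 1 point per library, for sets over all wells (left) and sets formed within bins of depth (right). Mitochondrial reads lie near or above 1 in all 3 libraries in both panels, while the ratios of human reads lie close to 0 within bins of depth.

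The number of genes per well showed no shared direction either. The median well held 2736 genes in the low and 2551 in the high set of DE1, 2043 and 2342 in DE2, and 739 and 829.5 in UMI1. Thinned to 2000 reads, the medians were 1021 and 988, 886 and 913.5, and 517 and 559. The mean log2 ratio at equal depth was 0.04 ± 0.08 (SD, n = 3), so the sets did not differ in genes beyond the spread between libraries. Within bins of depth the medians at 2000 reads were 1021 and 993, 905 and 907, and 590.5 and 572. Thinning kept all wells but 2, both in DE2. Reads on mouse genes, which a human cell does not make, had medians of 0.468% and 0.266% of reads in DE1, 4.70% and 3.97% in DE2, and 1.75% and 1.99% in UMI1. In DE1 the spread within a set was wide, with quartiles of 0.108% and 6.60% in the low and 0.0993% and 6.41% in the high set. The medians of DE1 therefore do not describe a typical well.

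Molecule counts were available for UMI1. They count the same molecules whose reads chose the sets, so their direction is no independent result. In UMI1 the low set had a median of 43 mitochondrial and 1280 other human UMIs per well, and the high set had 85.5 and 1483. The UMI share was higher in each successive set of the read share, with medians of 3.13%, 3.86%, 4.44% and 5.34%. The reads per mitochondrial UMI also differed, with a median of 9.38 in the low and 11.2 in the high set, which a selection on reads favours. The reads per other UMI were 12.95 and 13.06. The 3'DE libraries have no UMIs, and the same values could not be had for them.

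The genes outside the selection were then compared between the outer sets, with the wells of each set summed in each library. This gave 6 sums of 2178389 to 12903586 reads, and the 2 sums of a library were treated as a pair. The wells did not contribute equally: the deepest 10% of wells gave 16.8% to 17.1% of the human reads of an outer set in DE1, 46.9% to 61.4% in DE2 and 29.9% to 39.9% in UMI1. Of 8611 genes that passed the filter on low counts, 1 was called (0.0116% of genes tested; edgeR quasi-likelihood test, adjusted p 0.05), with a higher level in the high set, and 0 were called lower. At an unadjusted p under 0.05 there were 268 genes (3.11%), 92 higher and 176 lower, which is fewer than the 5% that this threshold gives when no gene differs. DESeq2 called 11 genes (0.128%), 5 higher and 6 lower, and left 4174 genes without an adjusted p. The 8 mitochondrial genes of the share are not the full set of mitochondrial messenger RNAs, and as the tables give no gene names, further mitochondrial transcripts may be among the genes tested.

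The called gene was ENSG00000198786. Whether it is itself a further mitochondrial transcript was not checked. It is therefore not read as a difference apart from the mitochondrial share. It was at 1084 CPM (here over the reads outside the genes of the selection) in the low and 2237 in the high set of DE1, 1512 and 3591 in DE2, and 864 and 1590 in UMI1. It was thus higher in the high set in 3 of 3 libraries, although the high set of UMI1 was only a little above the low set of DE2. The log2 change was 1.02 (SE 0.107, edgeR adjusted p = 0.0328). The middle sets lay between the outer ones in each library, with 1567 and 1685 CPM in DE1, 2431 and 2126 in DE2, and 1039 and 1096 in UMI1, from the lower middle to the upper middle set. It was found in 94 of 95 low-set wells and 95 of 95 high-set wells of DE1, so there the difference was one of level and not of detection. In UMI1 it was found in 71 of 96 and 85 of 96 wells.

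The call of ENSG00000198786 was lost without some of the wells or without DE2, while its log2 change moved little. Without the wells above 10%, which all lie in the high sets, the log2 change was 0.95 and the edgeR adjusted p was 0.0601, so that 0 genes were called (243 at an unadjusted p under 0.05). Without the wells that held a read on the TALL-104 markers (110, 121 and 41 wells in DE1, DE2 and UMI1), it was 0.98 with an edgeR adjusted p of 0.998 and 0 genes called (181 at an unadjusted p under 0.05). Without DE2 it was 0.96 with an edgeR adjusted p of 0.163. Without DE1 and without UMI1 it was 1.00 and 1.12, and the gene was still called. Its unadjusted edgeR p was 3.8e-06 with all wells and 7.0e-06 without the wells above 10%. It was 2.15e-04 without the wells that held a TALL-104 marker read, and 1.9e-05 without DE2. The part of the TALL-104 markers in the result was not tested beyond leaving out the wells with such reads.

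Of the genes that did not pass, 3 are described here, and they were chosen after their values were seen, as the higher gene and the 2 lower genes with the smallest p. ENSG00000228253 had 326 and 706 CPM in the low and high sets of DE1, 495 and 994 in DE2, and 48.1 and 93.5 in UMI1, a log2 difference of 0.99 (edgeR adjusted p = 0.598). Its difference was close to that of ENSG00000198786 at a lower level. Whether ENSG00000228253 is a mitochondrial transcript, and so tied to the selection, was not checked either. ENSG00000109971 had 775 and 587 CPM, 415 and 254 CPM, and 3115 and 1846 CPM in the same order, a log2 difference of -0.66 (edgeR adjusted p = 0.905). ENSG00000134057 had 868 and 468 CPM, 514 and 232 CPM, and 806 and 595 CPM, a log2 difference of -0.86 (edgeR adjusted p = 0.995). For each of the 3 genes, the high set was on the same side of the low set in 3 of 3 libraries. DESeq2, which assumes another model of the spread, gave adjusted p-values of 4.8e-04, 0.0066 and 0.0068 for them, in the order named, and 5.6e-12 for ENSG00000198786.

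**Figure D4:**
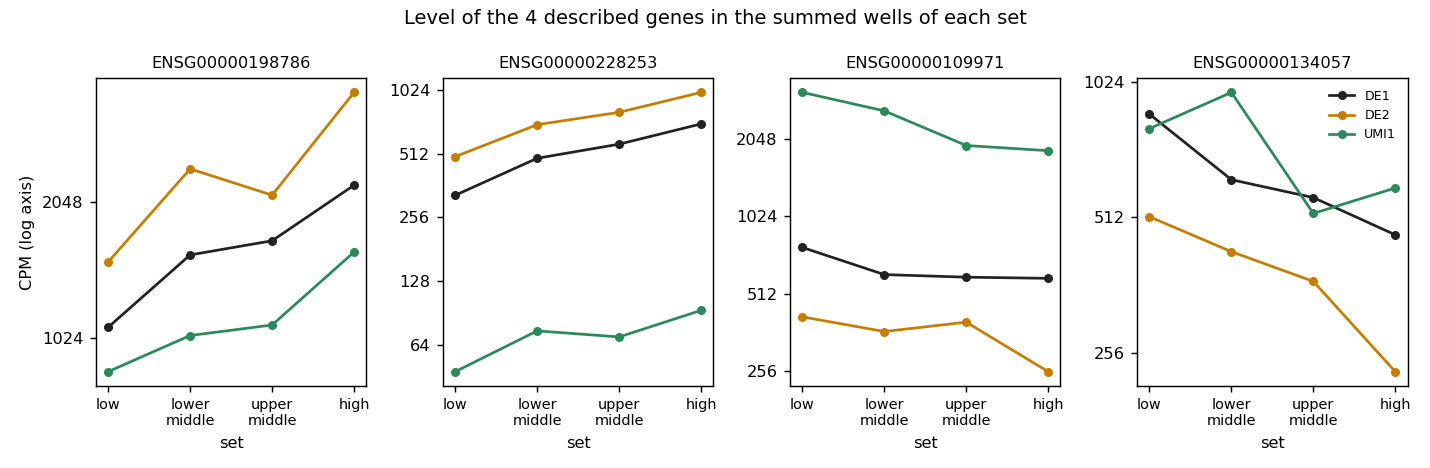
CPM (log axis) of the 4 described genes in the summed wells of the 4 sets of the share, with 1 line per library. ENSG00000198786 and ENSG00000228253 lie higher in the high than in the low set in all 3 libraries, and ENSG00000109971 and ENSG00000134057 lie lower.

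Among well-measured genes, large differences were rare. Of 1776 genes with a mean of at least 100 CPM, 9 had an absolute log2 difference above 1, and of 346 genes with at least 500 CPM, 1 had. The median absolute log2 difference was 0.189 at 100 CPM or more, below the median SE of 0.234. Over all 8611 genes it was 0.411 with a median SE of 0.685, and the median signed difference was -0.01. The test on simulated counts shows what this design could find over 7901 genes: of genes changed by 1 on the log2 scale, 10% were recovered, and of genes changed by 2, 33%. Thus a low count of called genes does not show that the other genes were equal.

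**Figure D5:**
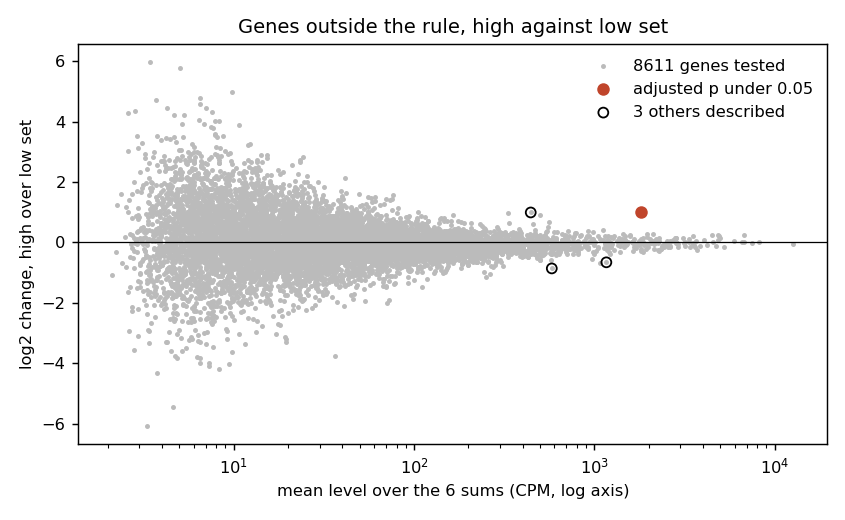
Log2 change, high over low set, against the mean level (CPM, log axis) of the 8611 genes tested outside the selection. The spread narrows with level, and the 1 called gene stands at a log2 change of 1.02 among genes of its level.

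The libraries had little in common in the differences of single genes, apart from the most abundant genes. Across the 1776 genes with at least 100 CPM, Pearson's r of the log2 differences was 0.106 between the 3'DE libraries, 0.120 between DE1 and UMI1, and 0.044 between DE2 and UMI1. Across the 346 genes with at least 500 CPM it was 0.396, 0.297 and 0.189. These are correlations across genes, which are not independent replicates. The wells of different libraries were separate wells, and no control wells were shared.

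The wells that the first comparison did not use gave no call. Between the upper middle and the lower middle set 0 of 9070 genes passed (edgeR, adjusted p 0.05), with 276 genes at an unadjusted p under 0.05 (3.04%). DESeq2 also called 0, with 494 at an unadjusted p under 0.05. The gene called between the outer sets, ENSG00000198786, had a log2 difference of 0.05 here. The 2 middle sets were close in share, with medians of 4.96% and 5.72% in DE1, for example.

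Whether the difference between outer sets was another one in UMI1 was tested with an interaction term. This called 212 of 8611 genes (2.46%), with 92 more positive and 120 more negative in UMI1, and ENSG00000198786 was not among them (edgeR adjusted p = 0.592). At an unadjusted p under 0.05 there were 1556 genes. The fit leaves 1 residual degree of freedom, given by the 2 libraries of 3'DE, and assumes that the lone 3'DE-UMI library varies as they do. The values go against this assumption: the SD over genes of the log2 difference was 1.61 in UMI1 against 0.77 in DE1 and 1.13 in DE2, and 1.21 against 0.50 and 0.87 for the 5055 genes with at least 20 CPM. In the test on simulated counts the interaction recovered 0% of changes of 1 and 4% of changes of 2 on the log2 scale, over 8152 genes. The 212 calls are therefore not read as a dependence on protocol. With UMI counts in place of reads for UMI1, the calls were not found again. The 3'DE libraries stayed as reads in that fit. The median Jurkat well of UMI1 held 1740 human UMIs against 21867 human reads. Whether the calls were lost through the lower counts was not tested.

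Well barcodes recur between chips, and 69, 69 and 61 barcodes were Jurkat wells in both libraries of the pairs DE1 and DE2, DE1 and UMI1, and DE2 and UMI1. Of these, 4, 3 and 5 were in the high set in both, and the Spearman's rho of the share was -0.036, 0.054 and 0.113. The share of a well was thus hardly related to the share of the well with the same barcode in another library.

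The other human line did not differ from Jurkat in a shared direction. Human wells taken as TALL-104-like by the same 12 marker genes numbered 95, 23 and 24, with median shares of 5.23%, 5.33% and 3.87%. The median of Jurkat minus that of TALL-104-like wells was 0.12, 1.14 and -0.53 percentage points. TALL-104-like wells were shallower, with medians of 4698, 10397 and 5673 human reads.

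Cell cycle scores were assigned to each well from the order of levels within pairs of cell cycle genes after thinning. The median score for G2/M was 0.34 in the low and 0.133 in the high set of DE1, 0.229 and 0.285 in DE2, and 0.61 and 0.589 in UMI1, so that DE2 went against the other libraries. With sets formed within bins of depth, it was lower in the high set of all 3 libraries, at 0.369 and 0.13 in DE1, 0.335 and 0.269 in DE2, and 0.62 and 0.576 in UMI1. The median score for S was 0.04 and 0.232 in DE1, 0.05 and 0.0415 in DE2, and 0.0135 and 0.018 in UMI1. Within bins of depth it was higher in the high set of all 3 libraries, at 0.033 and 0.209, 0.025 and 0.043, and 0.0105 and 0.018. The score for G1 was between 0.561 and 0.614 in all 6 outer sets. The percentage of wells assigned to G2/M was 32.6% in the low and 24.2% in the high set of DE1. It was 31.4% and 28.3% in DE2, where it did not go against DE1, and 44.8% in both sets of UMI1. The differences of the median scores in DE2 and UMI1 were small. Their direction in DE2 turned with the way the sets were formed, and with 3 libraries there is no test. No statement on cycling is drawn from these scores alone.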

How the data were processed

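For each library, the authors deposited a table of raw read counts by gene and by well, made with mappa and STAR 2.7.0b on a combined hg19 and mm10 reference (Cell Ranger 1.2.0 version), with no collapsing of UMIs. For UMI1 they also deposited UMI counts, made with the Drop-seq tools and STAR 2.4.2a. Per the methods, the reads were downsampled before this counting. Reads of 1 molecule are not independent. All intervals and SDs from counts cover counting error only. Groups were taken from the titles. The median Jurkat well held 26163, 39432 and 21867 human reads.

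Wells were selected and ranked as given in the report. Reads were summed per library and set, leaving out the 20 genes of the selection among 32738 human genes, and tested with edgeR 4.0.16 (R 4.3.3; TMM, filterByExpr, quasi-likelihood F-test, two-sided, Benjamini-Hochberg, library as a block, since both sets come from 1 library). DESeq2 1.42.0, other filters, thinning, bins of depth, other cut-offs and leaving out each library were alternatives. The fit was tested on simulated counts. Cell cycle scores (scran 1.30.0), and the exclusion of wells above 10% or with TALL-104 marker reads, were chosen after seeing the data. The selection and the lists were chosen with earlier results of these data known. Genes were to be named when called in the same direction in all libraries with at least 20 CPM, besides members of fixed symbol lists. No identifier matched a symbol (0 of 32738), so the lists and a check of the label with further markers were not analysed here, and doublets were limited only by imaging and the species and marker rules.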

Additional observations from a re-analysis of the deposited data

Results flagged for a closer look

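The interaction test of set and protocol on reads called 212 of 8611 genes (edgeR, adjusted p 0.05). It assumes an equal spread in all libraries, but the SD over genes of the log2 difference was 1.61 in UMI1 against 0.77 in DE1 and 1.13 in DE2. The count was 204 genes with DESeq2, 258 with sets formed within bins of depth, and 0 with edgeR on UMI counts for UMI1 (3'DE-UMI replicate 1), where 141 genes had an unadjusted p under 0.05. The 3'DE-UMI group holds 1 library, so protocol and library cannot be told apart.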

How the results depend on the processing

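The count of genes called between the outer sets was 1 with DESeq2 size factors, with wells thinned to 2000 reads, within bins of depth, at 5000 or more reads and at 98% or more human reads. It was 11 with DESeq2, 13 without a filter on low counts and 8 with UMI counts for UMI1. It was 0 without the block for library, which ignores the pairing of the sets, and 0 for the wells above against those below the median share, at an adjusted p of 1e-04, without wells above 10%, and without wells holding a TALL-104 marker read. Leaving out 1 library gave 0 to 9 genes: 5 without DE1, 0 without DE2 and 9 without UMI1. Where 1 library was left out, fewer sums entered the fit, and otherwise the cause was not tested. The log2 change of ENSG00000198786 stayed between 0.51 and 1.22, that of ENSG00000228253 between 0.53 and 1.10, that of ENSG00000109971 between -0.80 and -0.36 and that of ENSG00000134057 between -1.05 and -0.50, and none of them changed direction. The interaction with protocol called 0 genes with UMI counts. The upper middle against the lower middle set gave 0 genes under every alternative run, with DESeq2 among them. The log2 ratio of mitochondrial reads was 0.85 for the wells above against those below the median share, in place of 1.39. With 3 pairs of sums, small differences were not detectable.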
